A study of Rattus norvegicus with 12 samples.

Results

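The genes described here are *Gdf15*, *Nupr1*, *Ddit3*, *Atf4*, *Trib3*, *Asns*, *Hspa5*, *Ddit4*, *Xbp1* and *Herpud1*, which belong to the integrated stress response, the unfolded protein response and the response to amino acid shortage. They were chosen by name, with earlier results of these data known. Each of the 10 is measured by 1 probe set among 18195 genes with a single symbol on the array. Whole-lens RNA of male rats was measured on 12 arrays of the type GeneChip Rat Gene 2.0 ST. ICR/Ihr rats carry a hereditary cataract, and gave 3 arrays each at 4 weeks of age, when the lens had no cataract, and at 8 and 10 weeks, when cortical opacity was present. SD rats, bought from a supplier and without cataract, gave 1 array at each of the same ages. Strain and cataract cannot be told apart between ICR and SD, nor age and cataract within ICR.

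In the integrated stress response, sensor kinases phosphorylate the translation factor eIF2, which lowers protein synthesis in general while ATF4, a transcription factor, is made in larger amounts. ATF4 turns on genes for amino acid synthesis and uptake together with *Ddit3*, *Trib3* and *Nupr1*. The unfolded protein response starts at the endoplasmic reticulum and works through PERK, which feeds into ATF4, and through XBP1 and ATF6, which turn on chaperones and the machinery that removes misfolded proteins. GDF15 is a secreted hormone whose gene responds to many kinds of cell stress, and lens fibre cells make and fold large amounts of protein. The question put to the data was whether the other genes follow *Gdf15* across age and strain.

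Letters of known stress elements stand in the promoters of 5 of the 10 genes. RefSeq promoters (build GRCr8, 250 bases before to 50 after a transcript start) were found for all 10 and searched on both strands. For *Herpud1* and *Asns* the start used in these promoters lies inside the annotated span of the gene. Distances are from that inner start, and the bases before the 5′ end of the span were not searched. The C/EBP-ATF response element, bound by ATF4 and its partners, was searched as TGATGNAA. The ER stress response element, bound by ATF6 with NF-Y, was searched as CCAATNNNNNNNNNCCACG, and its second form as ATTGG and CCACG with 1 base between them. The matches are shown because their letters are those of the elements of both arms of the response, and *Herpud1* holds one of each, with the element in capitals and each written 5′ to 3′ on the strand that carries it.
*Nupr1*, C/EBP-ATF response element, chr1:190645938-190645967: caagccctgtcTGATGCAAtctggcctttt
*Trib3*, C/EBP-ATF response element, chr3:161275536-161275565: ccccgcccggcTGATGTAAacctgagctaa
*Hspa5*, ER stress response element, chr3:38452968-38452997: gttcaCCAATCGGAGGCCTCCACGacgggg
*Xbp1*, ER stress response element, chr14:84604553-84604582: acaggCCAATCGCAGACGGCCACGacccta
*Herpud1*, C/EBP-ATF response element, chr19:10614873-10614902: agggtgcgggcTGATGCAAcccgccgtggt
*Herpud1*, ER stress response element II, chr19:10614811-10614840: cgggcgctgATTGGGCCACGttgggcactg
The ER elements of *Hspa5*, *Xbp1* and *Herpud1* lie on the strand of their gene and begin 43, 65 and 124 bases before its start. The C/EBP-ATF elements of *Nupr1*, *Trib3* and *Herpud1* lie on the other strand, 55, 21 and 184 bases before the start, and the elements of *Herpud1* do not overlap. Of 33469 promoters of this length, 3.98% hold the first pattern, 0.0657% the second and 0.0508% the third. These letters were not found in the windows of *Gdf15*, *Ddit3*, *Atf4*, *Asns* and *Ddit4*, and a match or its absence is a description of the letters only.

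The signals are log2 values after Robust Multi-array Average (RMA) normalization, and a signal of 5 is the lower limit that the study used. Per ICR array 3130 to 3948 genes reached it, and per SD array 3041 to 3352. The arrays of ICR replicate 1 had the most, 3948, 3794 and 3546 at 4, 8 and 10 weeks, against 3130 to 3287 on the other 6. Markers of lens fibre cells had a mean signal of 10.31 to 10.66 on the 12 arrays. No leukocyte marker (0 of 12) and no measured marker of endothelium and blood (0 of 3) reached a signal of 5 on any array. The arrays of ICR replicate 1 stood apart from the other 6 on a principal component with 67.1% of the variance. Within ICR, equal replicate numbers went with similar departures from the age means, and the limma values are therefore also given with the number as a blocking term (the block). The sources used here do not say if the lenses of 1 age are from different animals, so the p-values rest on the spread among these arrays alone, and that spread may be technical. In whole lenses, fewer cells of a type and less RNA per cell cannot be told apart.

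*Gdf15*, which encodes the stress hormone, had signals of 3.75, 5.46 and 4.02 in 4-week-old ICR lenses (replicates 1, 2 and 3), 5.27, 5.45 and 4.76 at 8 weeks and 5.03, 6.27 and 5.01 at 10 weeks. Each 10-week array lay above the 4-week array of its own number, but the ages overlapped because 4-week replicate 2 was already as high as the 8-week arrays. The 4-week mean was 4.41 ± 0.92 (standard deviation, n = 3) and the 10-week mean 5.44 ± 0.72 (standard deviation, n = 3), a change of 1.03 on the log2 scale or 2.04-fold. Without the block it did not pass the limma test (standard error 0.50, adjusted p = 0.534), and with the block *Gdf15* rose (standard error 0.23, adjusted p = 0.0260). The SD arrays gave the other direction, with 4.93 at 4 weeks, 4.55 at 8 weeks and 4.45 at 10 weeks, all under the limit of 5. *Gdf15* and *Nupr1* are among the increased genes that the study drew from these same arrays, so their direction here is not independent evidence. By RT-qPCR, a separate measurement of RNA, the study also lists *Gdf15* as significantly increased in ICR lenses at 8 or 10 weeks. That measurement used male and female rats, and *Nupr1* is not on that list. The study also measured the increased genes of that list in SD lenses by RT-qPCR, with replicates. It divided them into genes raised in ICR only and genes raised in both strains. Its text does not name the group of *Gdf15*, so the course on the single SD arrays was not checked against that measurement.

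*Nupr1* encodes a small chromatin protein that responds to stress, and its signals were 5.03, 2.79 and 4.53 at 4 weeks, 5.30, 4.19 and 4.01 at 8 weeks and 5.72, 4.42 and 4.69 at 10 weeks. It was highest in replicate 1 at every age, and only the replicate 1 arrays reached 5. The change from 4 to 10 weeks was 0.83 (standard error 0.62, adjusted p = 0.786 in limma; standard error 0.28 and adjusted p = 0.0999 with the block), so the test was not passed. Within the replicate numbers the differences were 0.69, 1.63 and 0.16. In SD the signals were 2.65, 3.66 and 1.505 at 4, 8 and 10 weeks, all below the limit, and the SD array at 10 weeks was the lowest of the 12.

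*Ddit3* encodes CHOP, the transcription factor of the late, pro-apoptotic phase of the stress response. Its signals were 4.97, 3.41 and 4.09 at 4 weeks, 5.04, 3.80 and 4.31 at 8 weeks and 5.57, 4.19 and 4.55 at 10 weeks. The same order of replicates, 1 above 3 above 2, was kept at each age, and within each number the signal was higher at 10 weeks than at 8 and higher at 8 than at 4. The ages overlapped, and the change of 0.61 (1.53-fold) passed the test only with the block (standard error 0.12, adjusted p = 0.0136, against standard error 0.51 and adjusted p = 0.822 without it). In SD the signal was 3.86, 3.52 and 3.33 at 4, 8 and 10 weeks. Only 2 of the 9 ICR arrays and no SD array reached 5, both of them replicate 1 arrays of opaque lenses, so *Ddit3* entered the test only through the group where it is high. With no filter on low signals its adjusted p with the block was 0.102.

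**Figure D1:**
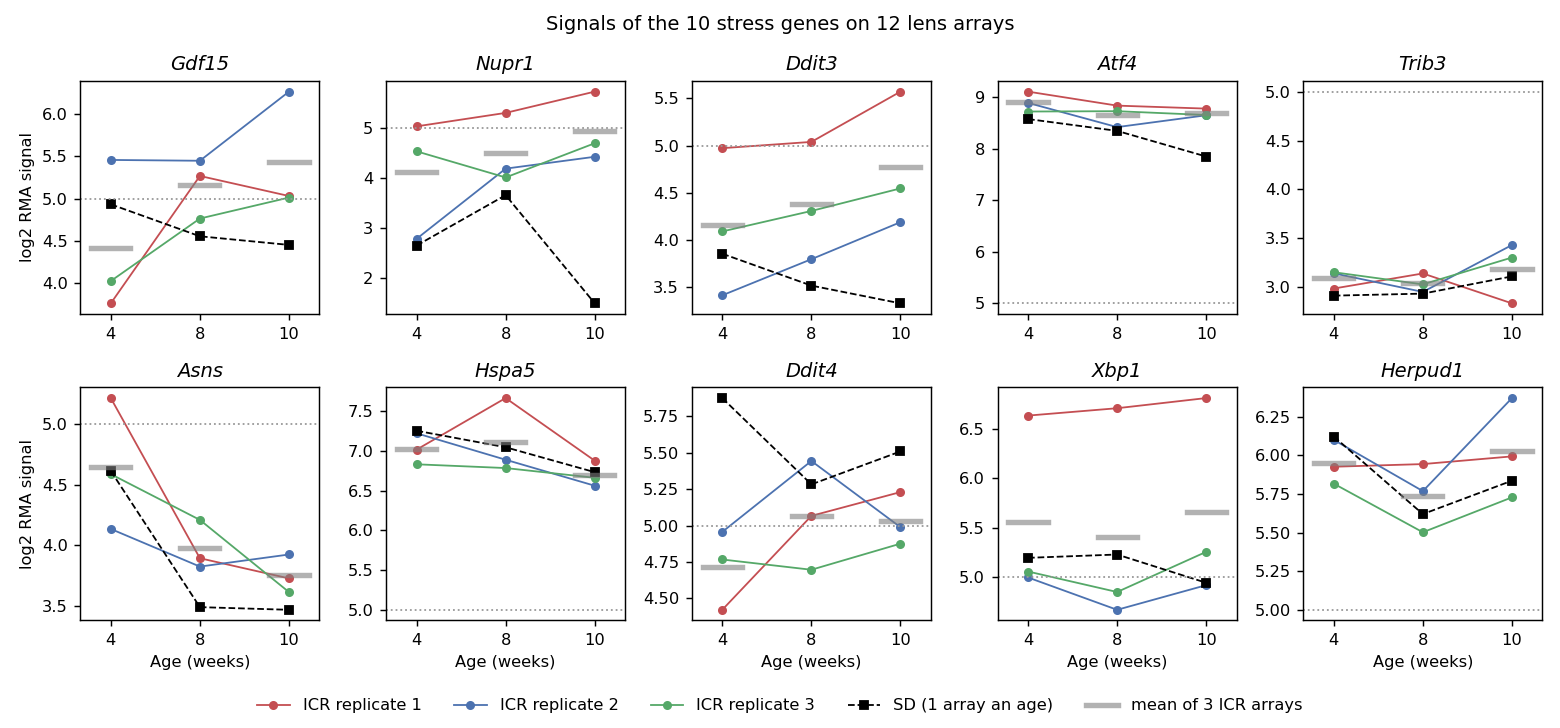
Log2 RMA signal (vertical axes, a scale of its own for each gene) of the 10 genes against age in weeks, with a coloured line for each ICR replicate number, a grey bar for the mean of the 3 ICR arrays, black squares for the single SD array and a dotted line at the limit of 5. *Gdf15*, *Nupr1* and *Ddit3* are higher at 10 than at 4 weeks along each ICR line while the SD line ends lower, *Asns* is lower in both strains, and *Trib3* stays between 2.84 and 3.43.

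*Atf4*, the central transcription factor, was well above the limit on all 12 arrays. Its signals in ICR were 9.11, 8.89 and 8.73 at 4 weeks, 8.84, 8.42 and 8.73 at 8 weeks and 8.78, 8.65 and 8.66 at 10 weeks. The 10-week value was the lower in each of the 3 pairs, by 0.07 to 0.33, and the change of −0.21 (adjusted p = 0.772 in limma, 0.296 with the block) did not pass. In SD the signal was 8.58, 8.35 and 7.85. ATF4 is regulated largely through translation of its mRNA, so the signal of this probe set says nothing of the amount of protein.

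*Trib3* encodes a pseudokinase induced by ATF4 that restrains it, and its signals lay between 2.84 and 3.43 on all 12 arrays. No array reached 5, so *Trib3* was not tested, and the other 9 genes were.

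*Asns*, which encodes asparagine synthetase and is a standard target of ATF4, went the opposite way to *Gdf15* in ICR. Its signals were 5.21, 4.14 and 4.59 at 4 weeks, 3.89, 3.82 and 4.21 at 8 weeks and 3.73, 3.92 and 3.61 at 10 weeks. It was the only one of the 9 tested genes whose 4-week and 10-week ICR arrays did not overlap, a pattern found in 17.2% of all genes tested. *Asns* fell by 0.89 (1.85-fold) with the block (standard error 0.22, adjusted p = 0.0377), and did not pass without it (standard error 0.26, adjusted p = 0.224). SD showed the same course with 4.61, 3.49 and 3.47, a difference of −1.14 from 4 to 10 weeks. Only 4-week replicate 1 reached 5, so *Asns* entered the test only through the group where it is high, and with no filter its adjusted p with the block was 0.14.

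*Hspa5*, which encodes BiP, the main chaperone of the endoplasmic reticulum, had signals of 7.02, 7.22 and 6.83 at 4 weeks, 7.67, 6.89 and 6.78 at 8 weeks and 6.88, 6.56 and 6.66 at 10 weeks. At 10 weeks each array was below its 4-week partner, by 0.14 to 0.66, and the change of −0.32 did not pass (adjusted p = 0.779 in limma, 0.275 with the block). In SD the signals were 7.25, 7.05 and 6.73.

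*Xbp1*, the transcription factor activated by IRE1, differed far more between replicate numbers than between ages. The replicate 1 arrays had 6.63, 6.71 and 6.81 at 4, 8 and 10 weeks, whereas replicates 2 and 3 stayed between 4.67 and 5.26 and SD between 4.94 and 5.23. The change from 4 to 10 weeks was 0.10 (adjusted p = 0.994 in limma, 0.622 with the block). The probe set does not separate the spliced, active form of the mRNA from the unspliced one.

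*Herpud1*, which acts in the removal of misfolded proteins, kept within 5.50 to 6.37 on all arrays, with a change of 0.08 from 4 to 10 weeks (adjusted p = 0.974 in limma, 0.713 with the block). *Ddit4* encodes an inhibitor of mTORC1, and its signals were 4.42, 4.96 and 4.77 at 4 weeks and 5.23, 4.99 and 4.88 at 10 weeks. All 3 pairs were higher at 10 weeks, but by 0.81, 0.03 and 0.11, and the change of 0.32 did not pass (adjusted p = 0.754 in limma, 0.284 with the block). In SD *Ddit4* had 5.88, 5.28 and 5.51.

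Counted over the genes, 0 of the 9 passed the limma test at 10 against 4 weeks without the block, with 1 (*Asns*) at an unadjusted p under 0.05, and 0.328% of all 4572 genes tested passed. With the block, 2 of 9 rose (*Gdf15* and *Ddit3*) and 1 fell (*Asns*), beside 1.66% of all genes tested that rose and 7.41% that fell. *Ddit3* and *Asns* passed the filter only through the group where each is high. *Gdf15* is among the increased genes that the study drew from these arrays, so this count is a description. Of these 3 genes *Gdf15* alone was still tested when a signal of 5 was required on 3 arrays (adjusted p = 0.0133 with the block), and with no filter its adjusted p was 0.102. In the 3 same-number pairs, 4 genes (*Gdf15*, *Nupr1*, *Ddit3* and *Ddit4*) were higher at 10 weeks each time and 3 (*Atf4*, *Asns* and *Hspa5*) lower each time, beside 14.2% and 35.2% of all genes tested. The median change of all genes tested was −0.10, with 65.4% negative. Each of the 3 calls was lost in part of the 9 fits that leave out 1 array. *Gdf15* was lost without 4-week replicate 1 or 3 or any 10-week array (adjusted p of 0.00768 to 0.126 over the 9 fits), *Ddit3* without 4-week or 10-week replicates 1 or 2 (0.0167 to 0.0783), and *Asns* without 4-week or 10-week replicates 1 or 3 (0.0232 to 0.169), while *Nupr1* passed without 4-week replicate 3 (1.22, adjusted p = 0.0161). Without the 3 replicate 1 arrays 0 of the 9 passed, with changes of 0.90, 0.62 and −0.59 for *Gdf15*, *Ddit3* and *Asns*.

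**Figure D2:**
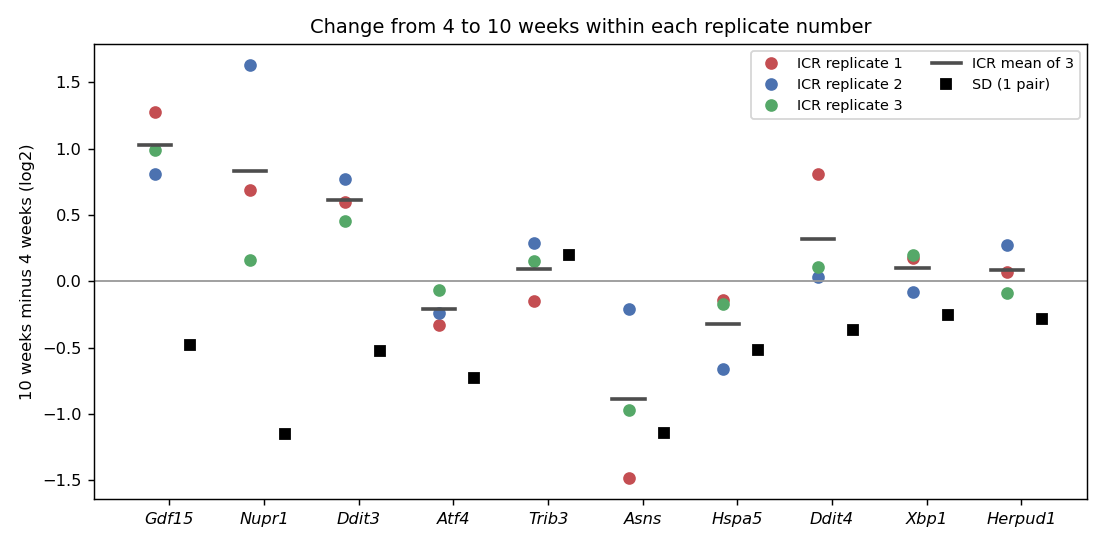
Difference in log2 signal between 10 and 4 weeks (vertical axis) for each of the 10 genes, with 1 coloured point for each ICR replicate number, a bar for their mean and a black square for the single SD pair. All ICR points of *Gdf15*, *Nupr1*, *Ddit3* and *Ddit4* lie above 0 with SD below it, and for *Asns*, *Atf4* and *Hspa5* all points of both strains lie below 0.

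At 8 weeks, when opacity had appeared, none of the genes passed. In limma 0 of 9 passed (1 at an unadjusted p under 0.05, *Asns*), beside 0% of all genes tested, and with the block 0 of 9 passed, beside 0.0656% that rose and 0.175% that fell. *Gdf15* stood at 0.75 above 4 weeks (adjusted p = 0.187 with the block), with differences of 1.52, −0.01 and 0.74 in replicates 1, 2 and 3. *Asns* stood at −0.67 (adjusted p = 0.205 with the block), *Nupr1* at 0.38, *Ddit3* at 0.22, *Ddit4* at 0.35, *Atf4* at −0.25, *Herpud1* at −0.21, *Xbp1* at −0.15 and *Hspa5* at 0.09. From 8 to 10 weeks limma with no block passed 0 of 9 (0 at an unadjusted p under 0.05), beside 0% of all genes tested, and 0 with it, beside 0% that rose and 0.241% that fell. *Ddit3* had the smallest p there (0.39, adjusted p = 0.361 with the block).

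Lenses with opacity were set against clear ones in ICR by averaging the 8-week and 10-week means and subtracting that at 4 weeks. With no block, limma passed 0 of 9 (1 at an unadjusted p under 0.05, *Asns*), beside 0.131% of all genes tested. With the block *Gdf15* rose by 0.89 (adjusted p = 0.0298) and *Ddit3* by 0.42 (adjusted p = 0.0380), and *Asns* fell by 0.78 (adjusted p = 0.0426), beside 1.51% of all genes that rose and 5.56% that fell. *Ddit3* and *Asns* entered this test, too, only through the group where each is high, so the count is a description. With no filter on low signals it became 0. The 4-week arrays are the same as in the comparisons by age. The 3 calls became 0 without 4-week replicate 1, 8-week replicate 3, 10-week replicate 1 or the 3 replicate 1 arrays, 1 without 4-week replicate 3, 8-week replicate 2, 10-week replicate 2 or the 3 arrays of replicate 2 or of replicate 3.

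Between the strains, with age as a factor, SD minus ICR was −1.91 for *Nupr1* (standard error 0.57, adjusted p = 0.253 in limma), −0.50 for *Atf4* (standard error 0.14, adjusted p = 0.210) and 0.62 for *Ddit4* (standard error 0.20, adjusted p = 0.321). These were the 3 genes at an unadjusted p under 0.05, and 0 of 9 passed, beside 0.644% of all 4656 genes tested. None of the 9 had all 3 SD arrays outside the range of the ICR arrays, a pattern found in 3.95% of genes. *Gdf15* itself differed by −0.36 (standard error 0.41, adjusted p = 0.748).

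In SD alone the differences have no replicate and no test. They were read against the limits that the study set, a rise of more than 1.5-fold or a somewhat larger fall. By that rule 1 of the 10 genes was past the fold at 8 weeks (*Nupr1*, higher by 1.004 but below the limit of 5), beside 2.19% of all genes, and 0 at 10 weeks, beside 2.58%. At 10 weeks *Nupr1* at −1.15 and *Asns* at −1.14 came close to the limit for a fall. From 4 to 10 weeks 9 of the 10 genes were lower in SD, all but *Trib3*, as were 3366 of the 4572 genes tested in ICR.

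*Gdf15*, *Nupr1*, *Ddit3* and *Ddit4* were higher at 10 weeks in all 3 ICR pairs and lower in the SD pair, as were 7.74% of all genes tested. The difference between the strains in that change was −1.51 for *Gdf15* (standard error 1.003) and −1.98 for *Nupr1* (standard error 1.25). In limma 0 of 9 genes passed for it (0 at an unadjusted p under 0.05), beside 0% of all genes tested, with the single SD arrays assumed to vary like the ICR groups. For *Asns* the difference was −0.25 (standard error 0.52), and for *Hspa5* −0.20 (standard error 0.48).

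The wider response was read from 8 lists of genes by role, which hold 79 tested genes. With the block, 1 of the 79 rose (*Ddit3*, 1.27%, beside 1.66% of all genes tested) and 10 fell (12.7%, beside 7.41%), and the median change was −0.20. Of the 10, *Asns*, *Slc7a11* and *Trib1* reached a signal of 5 only on 4-week arrays and so entered the test only through the group where they are high. *Ddit3* reached it only on arrays of opaque lenses, so these counts and shares are descriptions. Without the 8 of the 10 genes above that are in these lists and were tested, 0 of 71 rose and 9 fell, with a median of −0.21. *Slc7a11* and *Trib1* are still among the 9. All 9 were also lower at 10 than at 4 weeks in SD, as were 307 of the 339 genes that fell among all tested. With no block, limma passed 0 of the 79, with 14 at an unadjusted p under 0.05.

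By list, the genes that fell with the block are given as counts, beside 7.41% of all genes tested, with no test of the lists. Of 7 tested genes of amino acid synthesis 3 fell with the block, *Asns*, the mitochondrial folate enzyme gene *Mthfd2* (−0.60, adjusted p = 0.0142) and the aspartate aminotransferase gene *Got1* (−0.81, adjusted p = 0.0339), with a list median of −0.32, and *Chac1*, which encodes a glutathione-degrading enzyme, was at 0.35 (adjusted p = 0.305). *Mthfd2* had 6.11, 5.99 and 6.03 at 4 weeks, 5.604, 5.61 and 5.68 at 8 weeks and 5.45, 5.23 and 5.64 at 10 weeks. The 4-week arrays overlapped with neither later age, beside 10.4% of all genes tested at 8 weeks and 17.2% at 10 weeks. In SD *Mthfd2* had 6.17, 5.32 and 4.78. Of 7 genes of amino acid transport 2 fell, the cystine transporter gene *Slc7a11* (−1.10, adjusted p = 0.0160) and the leucine transporter gene *Slc7a5* (−0.66, adjusted p = 0.0119), with a list median of −0.49, and the glycine transporter gene *Slc6a9* was at −0.94 (adjusted p = 0.143). *Slc7a5* had 8.62, 8.95 and 8.75 at 4 weeks and 7.77, 8.29 and 8.28 at 10 weeks, which do not overlap. The same held for 17.2% of all genes tested. *Slc7a5* and *Mthfd2* were named by a small p for that comparison. *Slc7a11* reached 5 only in 4-week replicate 2. Of 14 genes that charge or export tRNA 13 were negative, with a median of −0.25, and 1 fell, the exportin gene *Xpot* (−0.55, adjusted p = 0.0133), while *Iars1* was at −0.52 and *Wars1* at −0.34.

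Among 7 genes of feedback and translation control 0 passed limma with no block (3 at an unadjusted p under 0.05). With the block 3 fell, beside 7.41% of all genes tested. These were *Ppp1r15a* (−1.17, adjusted p = 0.00869) and *Ppp1r15b* (−0.49, adjusted p = 0.0414), whose proteins guide the removal of phosphate from eIF2, and the pseudokinase gene *Trib1* (−0.74, adjusted p = 0.0164), which reached 5 on 2 arrays, both at 4 weeks. *Ppp1r15a* had 6.16, 6.88 and 5.62 at 4 weeks and 5.05, 5.06 and 5.03 at 10 weeks, with 6.59 and 5.37 in SD. It is also on a list of immediate early genes, which respond to the handling of a tissue. Of 6 tested genes of kinases, sensors and their target 1 fell, *Eif2s1*, the gene of the eIF2 subunit that is phosphorylated (−0.94, adjusted p = 0.00654), which is named because of that value. Its signals were 8.64, 7.36 and 7.53 at 4 weeks and 7.52, 6.65 and 6.55 at 10 weeks. The sensor gene *Atf6* was at −0.35 (adjusted p = 0.0660 with the block), *Atf6b* at −0.53 and the protease gene *Mbtps1*, whose product cleaves ATF6, at −0.37. The study's lists of decreased genes, drawn from these arrays, hold *Ppp1r15a* (ICR and SD), *Slc7a11* (ICR) and *Mthfd2* (SD), so their direction in those strains is not independent evidence.

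The genes of the endoplasmic reticulum did not pass. Of 13 tested chaperone genes 0 passed in either limma fit (1, *Calr*, at an unadjusted p under 0.05 with no block), with a median of −0.15 beside −0.10 for all genes. The calcium-binding chaperone gene *Calr* was at −0.35 (adjusted p = 0.134 with the block), the disulfide isomerase gene *P4hb* at 0.27 and *Hspa13* at −0.36. Of 14 genes of degradation and export 0 passed in either limma fit (0 at an unadjusted p under 0.05 with no block), with a median of −0.07, and *Syvn1*, the ubiquitin ligase gene of this pathway, was at −0.30. Of 11 transcription factor genes 1 rose with the block (*Ddit3*), beside 1.66% of all genes tested. *Cebpg*, a partner of ATF4, was at 0.44 (adjusted p = 0.0727 with the block), *Nfe2l1* at 0.21 and *Creb3l2* at −0.38. Of 3 tested p53 targets 0 passed in limma (0 at an unadjusted p under 0.05), among them *Btg2* at −0.99, *Mdm2* at −0.18 and *Ccng1* at −0.06. *Vegfa*, the only other gene of the hormone list that was tested, was at −0.41 (adjusted p = 0.105 with the block).

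**Figure D3:**
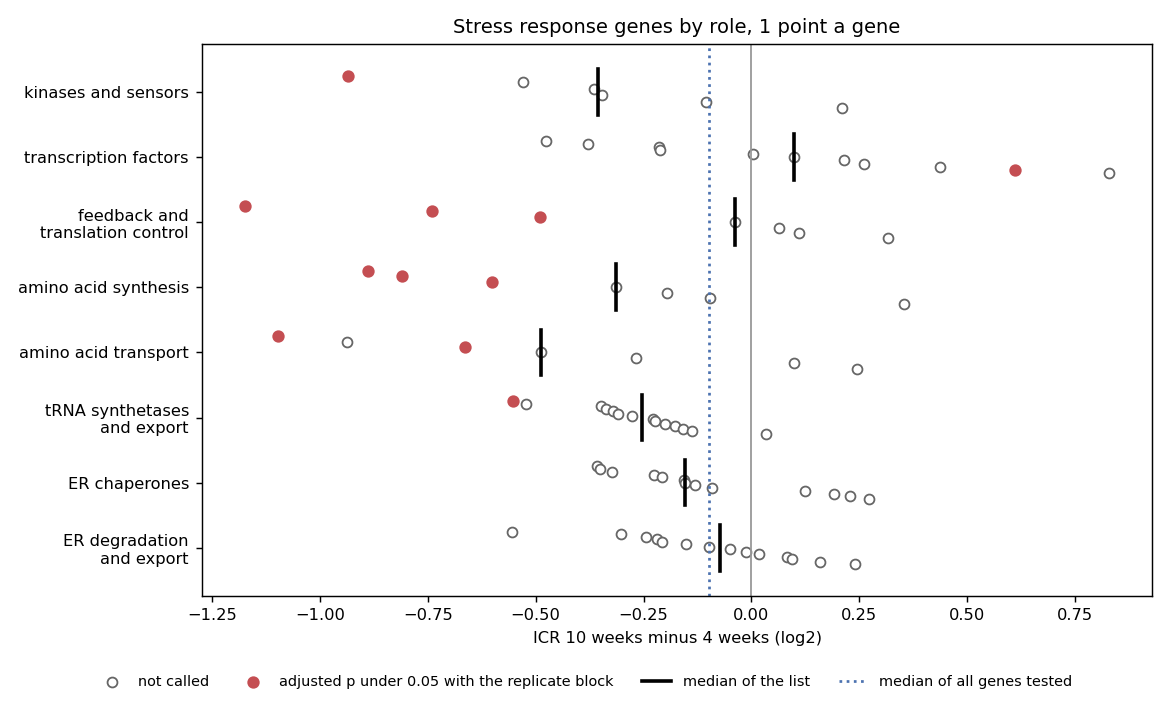
Change in log2 signal from 4 to 10 weeks in ICR (horizontal axis) for each tested gene of 8 role lists (rows), with red points for genes that passed limma with the replicate block, open points for the others, a black bar for the list median and a dotted line for the median of all genes tested. Red points lie to the left in the kinase, feedback, amino acid and tRNA rows, the red point to the right is *Ddit3*, and both endoplasmic reticulum rows hold no red point.

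*Gdf15* was correlated with each of the other 8 tested genes over the 9 ICR arrays, which share ages and replicate numbers. The p-values are from an exact 2-sided permutation test and were adjusted over all 4571 genes correlated with *Gdf15*, of which 0 passed by Pearson's r (279 at an unadjusted p under 0.05). *Asns* had r = −0.75 (exact permutation p = 0.0212, adjusted p = 0.737) and Spearman coefficient = −0.45 (exact permutation p = 0.230, adjusted p = 0.894), with r = −0.68 without the 2 arrays farthest from the median of *Gdf15* and r = −0.61 over the 6 arrays of replicates 2 and 3. *Ddit4* had r = 0.66 (exact permutation p = 0.0503, adjusted p = 0.737) and Spearman coefficient = 0.72 (exact permutation p = 0.0369, adjusted p = 0.894), with r = 0.64 without those 2 arrays and 0.51 over the 6. Over all 12 arrays r was 0.28 for *Ddit4* and −0.45 for *Asns*, and on deviations from the means of age and replicate number −0.0168 and −0.51, so that the relation of *Ddit4* did not hold there. *Nupr1* had r = −0.26 and Spearman coefficient = −0.33 and *Ddit3* r = −0.29 and Spearman coefficient = −0.37 (exact permutation p of 0.336 to 0.4998, adjusted p of 0.757 to 0.903), although both were higher along with *Gdf15* at 10 weeks. On the 6 arrays of replicates 1 and 3 alone these were r = 0.27 and 0.35, the opposite sign. They stayed negative over the 6 arrays of replicates 2 and 3 (−0.21 and −0.22) and on deviations from the age means (−0.70 and −0.69). On deviations from the means of age and replicate number they were −0.48 and −0.66, also negative. Coefficients on deviations were not tested, and few free values are left among 9 arrays once both sets of means are removed. *Gdf15* was highest in replicate 2 at each age, at a mean of 5.73 over the ages against 4.68 and 4.60 in replicates 1 and 3, whereas *Nupr1* and *Ddit3* were highest in replicate 1, at 5.35 and 5.20.

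The remaining genes gave r = −0.52 (*Atf4*), −0.33 (*Xbp1*), −0.07 (*Hspa5*) and 0.52 (*Herpud1*), with Spearman coefficients of −0.33, −0.32, 0.02 and 0.60 and exact permutation p of 0.0968 to 0.982 (adjusted p of 0.737 to 0.995). Without the 2 farthest arrays r was −0.06, 0.13, 0.43 and 0.37, and on deviations from the means of age and replicate number 0.45, 0.75, 0.85 and 0.70, so that 3 of these 4 changed sign on the deviations. *Nupr1* and *Ddit3* ran together, with r = 0.92 over the 9 arrays as a description, and with *Xbp1* they had 0.76 and 0.88, where the replicate 1 arrays are the high ones. On deviations from the means of age and replicate number these values were 0.58, −0.45 and −0.95, so both relations with *Xbp1* turned their sign. All coefficients on these deviations rest on few free values and were not tested.

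**Figure D4:**
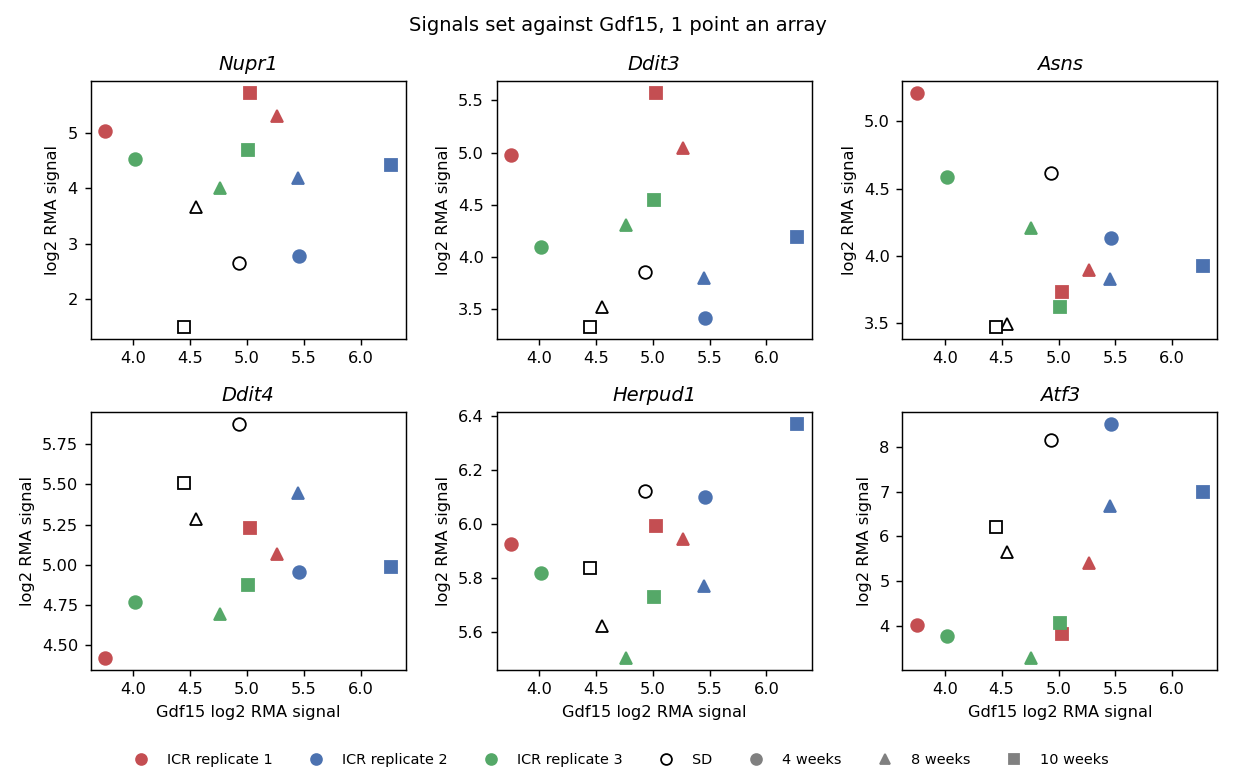
Log2 RMA signal of 6 genes (vertical axes) against that of *Gdf15* (horizontal axis), 1 point for each of the 12 arrays, coloured by ICR replicate number or open for SD, with the shape of the point for the age. In ICR the points of *Asns* lie lower where *Gdf15* is higher (r = −0.75, which did not pass the test) while both are lower together in SD, replicate 1 lies high for *Nupr1* and *Ddit3*, and replicate 2 lies high for both *Gdf15* and *Atf3*.

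The tested genes most like *Gdf15* by Pearson's r over the 9 ICR arrays were *Stx7* (0.92), *rnf141* (0.92), *Agps* (0.87), *Dctn4* (0.87) and *Jund* (0.84), and those most opposite were *Papola* (−0.90), *Kiaa1549* (−0.90) and *Rbl2* (−0.89). They were chosen by this value, which is a description, and none of them is among the 10 genes. *Jund* had 6.44, 7.23 and 6.21 at 4 weeks, 6.74, 7.34 and 6.52 at 8 weeks and 6.81, 7.40 and 6.39 at 10 weeks, so it too was highest in replicate 2 at each age.

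Values of genes that respond to handling and of markers of neighbouring tissue stand beside these results. *Atf3*, an immediate early transcription factor gene that ATF4 also induces, had 4.01, 8.52 and 3.77 at 4 weeks, 5.41, 6.67 and 3.27 at 8 weeks and 3.82, 6.998 and 4.05 at 10 weeks, with 8.15, 5.66 and 6.21 in SD. Its replicate 2 arrays were the highest at each age, as were those of *Gdf15*. Of 45 listed immediate early genes 35 reached a signal of 5, and their mean signal was 4.46 to 6.54 at 4 weeks, 4.74 to 5.49 at 8 weeks, 4.38 to 5.31 at 10 weeks and 4.86 to 6.43 in SD. Of the 34 that were tested, 31 were lower at 10 than at 4 weeks (median change −0.64), 2 fell with the block, beside 7.41% of all genes tested, and 0 passed limma with no block (2 at an unadjusted p under 0.05). With the mean signal of the immediate early genes as a covariate and the block, *Gdf15* was at 1.41 (adjusted p = 0.00756) and *Asns* at −1.14 (adjusted p = 0.0460), and *Ddit3* lost its call (0.50, adjusted p = 0.112). Of 25 markers of ciliary body and iris 10 reached 5. With the block 7 of these fell (median change −1.53), in part the decreased genes of the study, beside 7.41% of all genes tested. The mean signal of the 10 was 5.59 to 6.56 at 4 weeks, 5.30 to 6.11 at 8 weeks, 4.83 to 5.23 at 10 weeks and 5.28 to 5.97 in SD. The markers named by the smallest p were *Slc26a4* (−2.50), *Sod3* (−1.89) and *Slc13a3* (−1.497), all of them lower, whereas 3 of the 10 markers were higher at 10 weeks. For opaque against clear lenses 1 of the 10 rose with the block and 0 fell, beside 1.51% and 5.56% of all genes tested. With the mean signal of the ciliary body and iris markers as a covariate and the block none of the 9 genes passed, with *Gdf15* at 1.59 (adjusted p = 0.222), *Asns* at −1.07 (adjusted p = 0.568), *Ddit3* at 0.41 (adjusted p = 0.735) and *Nupr1* at −0.23 (adjusted p = 0.937). The mean signal of the ciliary body and iris markers did not overlap between 4 and 10 weeks in ICR, so the fit with it cannot separate these markers from age. The part of either list in the results was not tested beyond these fits. Of 11 lens fibre markers 1 rose (*Lgsn*, 0.92) and 1 fell (*Dnase2b*, −1.498) with the block, with *Bfsp1* at −0.25. Of 10 lens epithelium markers 2 fell and 3 were higher, with *Slc2a1* at −0.57, *Pax6* at −0.41 and *Lama1* at −0.37. Among all genes tested 1.66% rose and 7.41% fell with the block.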

How the data were processed

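The authors scanned the arrays and normalized them by Robust Multi-array Average in R, and the deposited values are log2 signals, 1 per probe set and array. The sources used here do not state the package version or whether all arrays were normalized together. The platform annotation gives 1 symbol to 18511 of the 36685 probe sets, several to 575 and does not list 17599. Signals equal within 0.0001 to those in tables of the study named 30 more. For 292 genes with several probe sets the one with the highest ICR mean was used, and each of the 10 genes had 1 probe set. No background stands beside the signals, so genes with a signal of 5 or more on at least 1 array of the fit were tested, 4572 in ICR and 4656 on all 12 arrays.

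Ages and strains were compared in R 4.3.3 with limma 3.58.1 (lmFit, then eBayes), 2-sided, with Benjamini-Hochberg adjustment over all genes tested and a threshold of 0.05. Replicate numbers come from the sample titles. The deviations of same-numbered ICR arrays from their age means correlated at 0.54 to 0.85 in all 9 pairs, so the numbers were taken as pairs. Arrays of replicates 2 and 3 at different ages also correlated with each other, at 0.34 to 0.51. Replicate 1 against replicates 2 and 3 was at −0.75 to −0.53, so the pattern is in large part replicate 1 against the others. The scripts were tested on simulated data. The members and lists were chosen with earlier results of these data known. Genes named besides the 10 are up to 3 per list with the smallest p at 10 against 4 weeks, the 5 highest and 3 lowest correlations with *Gdf15*, *Atf3*, and *Eif2s1*, which was added after its value was seen. Promoters are from RefSeq. The number of arrays limits the precision.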

Additional observations from a re-analysis of the deposited data

Results flagged for a closer look

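The change from 4 to 10 weeks ran one way in every ICR pair and the other way in the SD pair for 4 of the 10 genes. SD minus ICR, this change differed by −1.51 on the log2 scale for *Gdf15*, by −1.98 for *Nupr1*, by −1.14 for *Ddit3* and by −0.68 for *Ddit4*. In limma the adjusted p of this difference was 1 for each of the 4, with 1 SD array at each age, and 7.74% of all genes tested had the same opposite directions.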

How the results depend on the processing

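The replicate block moved the count of genes that passed from 0 to 3 of 9 at 10 against 4 weeks and from 0 to 3 for opaque against clear lenses, and it changed no other call of the 9 genes. Combinations of the block with another choice, the fits without the 30 probe sets named through the study's tables (3 in both comparisons), without each SD array and the correlation without replicate 1 were chosen after seeing the data. With the block, the 3 calls became 0 in both comparisons with no filter, with the mean of the ciliary body and iris markers as covariate, when unnamed probe sets were tested too, and without the 3 replicate 1 arrays. They became 1 in both when a signal of 5 was required on 3 arrays or more, where *Ddit3* and *Asns* are no longer tested. For opaque against clear lenses they became 1 without the 3 replicate 2 or the 3 replicate 3 arrays. Leaving out 1 array gave 0 to 3 calls at 10 against 4 weeks and 0 to 2 for opaque against clear. The counts without the block, the strain counts and the count of correlations were 0 under every other alternative run. In SD, 1 gene past the fold became 2 with quantile normalization.

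The signs that turned belong to changes and correlations that had not passed their test. *Hspa5* at 8 weeks was at −0.10 with array weights and −0.19 without the replicate 1 arrays. With the ciliary body and iris covariate *Atf4* was at 0.14, *Hspa5* at 0.20 and *Xbp1* at 8 weeks at 0.16, and with the block *Nupr1* at −0.23 (from 0.83), *Atf4* at 0.0654, *Hspa5* at 0.0632 and *Ddit4* at −0.0194 (from 0.32). *Herpud1* was at −0.0109 with and without the block without the replicate 2 arrays and *Nupr1* at 8 weeks at −0.13. Leaving out 1 array gave −0.47 to 0.63 for *Xbp1* and −0.0871 to 0.23 for *Herpud1* at 10 weeks (−0.0414 to 0.15 with the block), and at 8 weeks −0.28 to 0.84 for *Nupr1*, −0.15 to 0.63 for *Ddit3*, −0.19 to 0.25 for *Hspa5* and −0.80 to 0.38 for *Xbp1*. It gave −0.30 to 0.29 for the correlation of *Hspa5*. Correlations with *Gdf15* turned for *Nupr1* over 12 arrays (0.0365) and without replicate 2 (0.27), for *Ddit3* (0.35) and *Herpud1* (−0.0360) without replicate 2, for *Atf4* (0.45) and *Ddit4* (−0.0168) on deviations from age and replicate means and *Atf4* with quantile normalization (0.13), and for *Xbp1* in 3 cases (0.13, 0.13 and 0.75). *Hspa5* turned without the 2 farthest arrays (0.43), without replicate 2 (0.28), on deviations from age means (0.18) or from age and replicate means (0.85) and with quantile normalization (0.21). The causes were not tested.

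The other probe set of a gene was not run because each gene has 1, and correlations on deviations gave no count. Signals of *Nupr1*, *Ddit3* and *Asns* lie mostly under the limit of 5.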
